A study of Homo sapiens with 6 samples.

Results

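The genes described here encode aminoacyl-tRNA synthetases, the enzymes that join each amino acid to its tRNA, together with the scaffold proteins that hold part of them in the multisynthetase complex. They were taken from the deposited expression table as the genes whose symbol equals a name on a list of 38, and all 38 were found once each among the 78304 genes of the table: 19 cytosolic enzymes, 16 mitochondrial enzymes and 3 scaffold proteins. The subunits FARSA and FARSB of phenylalanyl-tRNA synthetase count as separate members. Huh7, a human hepatocellular carcinoma cell line labelled WT in every sample, was plated for 24 h and then exposed for 24 h either to 16'-DEC, a compound given only by this name and without a dose in the labels, or to DMSO, its vehicle. Each condition has 3 libraries of poly(A)-selected RNA, and the series asks how the compound alters mRNA levels in these liver cancer cells. The labels do not say whether the 3 libraries of a condition came from separate cultures, so the p-values measure only the spread between libraries, which may be technical.

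Cytosolic synthetases, whose symbols end in 1 apart from FARSA and FARSB, serve the ribosomes that translate nuclear mRNAs, and mitochondrial synthetases, whose symbols end in 2, serve the ribosomes inside mitochondria, although both kinds are encoded in the nucleus. In animals a subset of the cytosolic enzymes is bound together by the scaffold proteins AIMP1, AIMP2 and EEF1E1. When charged tRNA runs short, the kinase GCN2 (gene EIF2AK4) senses uncharged tRNA and raises translation of the transcription factor ATF4, and many cytosolic synthetase genes are known ATF4 targets. GARS1 and KARS1 serve both compartments, since each gene makes both a cytosolic and a mitochondrial enzyme. They are counted with the cytosolic enzymes.

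The values are TPM, a transcript's share of the library, which are scaled by gene length and to a fixed total in each library, so each value is relative to all other RNA in that library. The number of reads behind them is not given in the sources used here. Genes at or above 1 TPM numbered 13131 to 13459 in 16'-DEC libraries and 14936 to 15118 in DMSO libraries. All 10 hepatocyte markers examined were at or above 1 TPM, with sums of 22205 to 23352 TPM in 16'-DEC libraries and 19324 to 19928 TPM in DMSO libraries. APOA2 made up the largest part of these sums, and single markers went both ways. ALB, APOB, FGA, FGB and AFP were lower in every 16'-DEC library than in every DMSO library. APOA1, APOA2, SERPINA1 and HNF4A were higher in every 16'-DEC library, and TTR overlapped. Markers of leukocytes (1 of 4 at or above 1 TPM, CD3E at 0), endothelial cells (0 of 3) and fibroblasts (1 of 4) were low. Their sums were 4.61 to 5.01 TPM for leukocytes, 0.267 to 0.717 TPM for endothelial cells and 0.710 to 2.26 TPM for fibroblasts in 16'-DEC libraries, against 1.95 to 3.33, 0.186 to 0.526 and 1.59 to 2.53 TPM in DMSO libraries. Pearson correlations of log2(TPM + 1) were 0.990 to 0.994 among 16'-DEC libraries, 0.982 to 0.989 among DMSO libraries and 0.898 to 0.922 between the conditions.

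All 38 members passed the filter of an average of 1 TPM or more across the 6 libraries. In TPM, a scale corrected for length, GARS1 (glycine) and YARS1 (tyrosine) were among the 3 cytosolic enzymes with the highest means in both conditions. GARS1 was highest in 16'-DEC libraries, at 286.6 ± 13.0 TPM, against 261 ± 8.81 TPM in DMSO libraries (SD, n = 3 each). NARS1 (asparagine) was highest of the class in DMSO libraries, at 110.2 ± 11.0 TPM in 16'-DEC libraries and 293 ± 9.35 TPM in DMSO libraries, so that its mean stood below those of GARS1, SARS1, YARS1, QARS1, MARS1, WARS1, KARS1 and AARS1 after the compound. FARSB was the lowest cytosolic member, at 12.8 ± 0.658 TPM in 16'-DEC and 14.0 ± 0.636 TPM in DMSO libraries. The mitochondrial enzymes were lower as a class and reached down to PARS2 (proline), at 3.50 ± 0.575 TPM in 16'-DEC and 3.31 ± 0.312 TPM in DMSO libraries. Its levels overlapped between the conditions.

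The summed level of the 19 cytosolic enzymes was 2458, 2481 and 2185 TPM in 16'-DEC libraries, against 2223, 2277 and 2376 TPM in DMSO libraries. These sums overlapped, although most of the single members did not. The 16 mitochondrial enzymes summed to 389, 396 and 358 TPM in 16'-DEC libraries, against 447, 461 and 452 TPM in DMSO libraries, and the treated libraries were all lower. The 3 scaffold genes summed to 267, 272 and 291 TPM in 16'-DEC libraries, against 1016, 1037 and 926 TPM in DMSO libraries, a gap set mainly by EEF1E1. The third 16'-DEC library was the lowest of its group for 18 of the 19 cytosolic enzymes, 11 of the 16 mitochondrial enzymes and 0 of the 3 scaffold genes. That library also had the fewest genes at or above 1 TPM (13131). The share of all tested genes lowest in it was not computed, so these counts are not shown to be particular to synthetases.

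**Figure D1:**
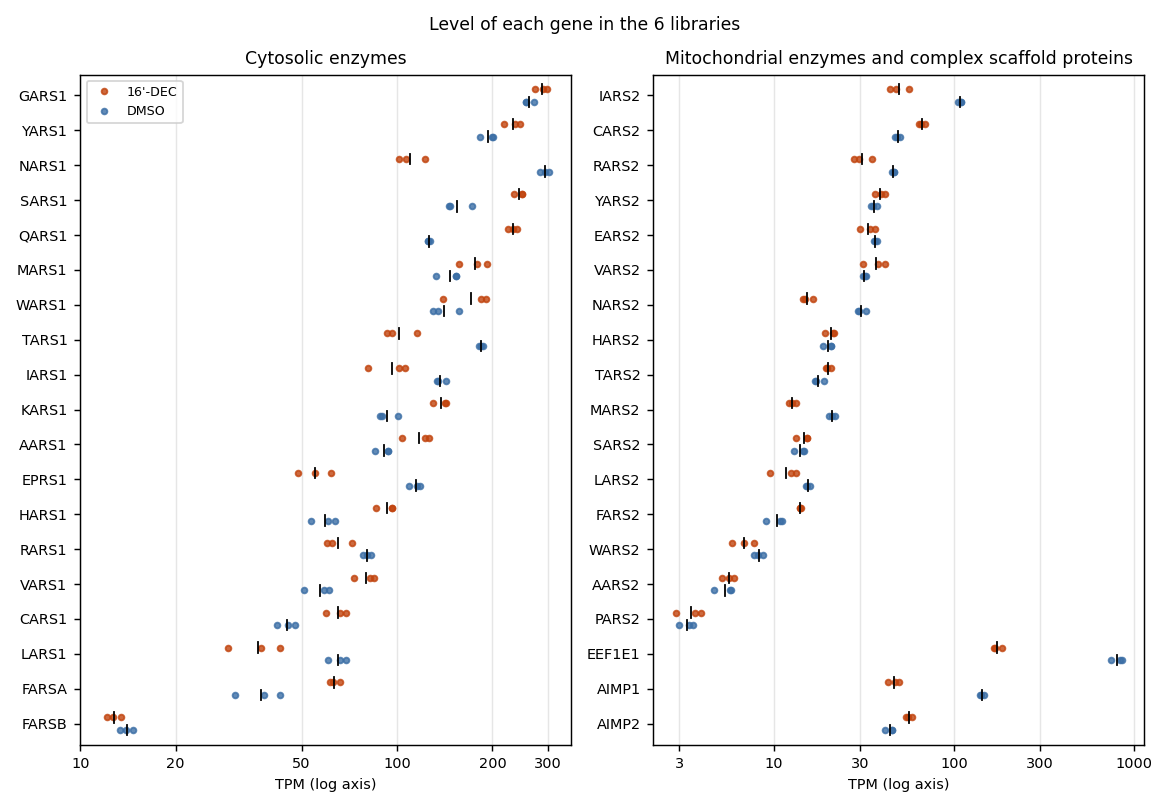
Level of each member in TPM on a log axis, with cytosolic enzymes in the left panel and mitochondrial enzymes and scaffold genes in the right panel, each ordered by mean level. Points are single libraries (orange, 16'-DEC; blue, DMSO) and black ticks are means of 3; EEF1E1 is separated farthest, at 168 to 185 TPM in 16'-DEC libraries and 740.0 to 852 TPM in DMSO libraries.

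Of the 19 cytosolic enzymes, 10 rose with 16'-DEC, 6 fell and 3 did not pass the test, with a median change of 0.26 on the log2(TPM + 1) scale. In TPM the greatest falls were those of NARS1 (-1.40) and EPRS1 (-1.05), and the greatest rises those of QARS1 (0.88) and FARSA (0.77). Calls are adjusted p-values under 0.05 from limma with Benjamini-Hochberg adjustment over all 14275 tested genes, of which 22.7% were higher and 48.9% lower, with a median change of -0.31. The libraries of the conditions did not overlap for 17 cytosolic enzymes, 11 higher and 6 lower in 16'-DEC, where 24.3% of all tested genes were higher and 51.0% lower without overlap. A lower level of a transcript per cell and fewer cells carrying it cannot be told apart in bulk RNA.

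TPM fix only the total of a library, and the split differed between ways of scaling. With median-of-ratios scaling the median change of all tested genes was -0.01, and 13 cytosolic enzymes were called higher and 4 lower, with 5290 and 5376 of all genes. Quantile normalization, with a median of 0.11 over all genes, gave 13 higher and 5 lower, with 5990 and 4748 of all genes. An adjustment for transcript GC content and length gave 16 higher and 2 lower, with 4590 and 4213 of the 13291 genes that have a GC value. This adjustment also re-centres each library, which removes the average change of all genes, -0.395 over all tested genes in TPM. Part of each shift it makes is therefore shared by all genes, whatever their GC content. NARS1 and EPRS1 were called lower, and the 10 that rose were called higher, under each of these 3 scalings as well as in TPM.

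NARS1, which charges the asparagine tRNA (ENSG00000134440, GRCh38 chr18:57600656-57622213, minus strand), fell most. Its levels were 107, 123 and 101 TPM in 16'-DEC libraries, against 301, 283 and 293 TPM in DMSO libraries. Every treated library was far below every control library, and the treated mean was 37.7% of the DMSO mean. The log2 change was -1.40 ± 0.08 (SE; limma, adjusted p = 1.00e-06), and it was -0.77 after the GC adjustment (adjusted p = 1.31e-05).

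EPRS1 encodes the bifunctional enzyme that charges both glutamate and proline tRNAs (ENSG00000136628, GRCh38 chr1:219968601-220046658, minus strand). It had 54.9, 61.9 and 48.7 TPM in 16'-DEC libraries, against 119, 109 and 116 TPM in DMSO libraries. The groups were well apart, with a treated mean at 48.2% of the control mean and a log2 change of -1.05 ± 0.10 (SE; limma, adjusted p = 1.28e-05). After the GC adjustment -0.18 remained (adjusted p = 0.0144), so most of this change is absent from the adjusted values.

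TARS1, for threonine, had 96.2, 115 and 92.6 TPM in 16'-DEC libraries, against 184, 181 and 187 TPM in DMSO libraries. LARS1, for leucine, had 37.2, 42.6 and 29.3 TPM in 16'-DEC libraries, against 65.9, 60.4 and 68.8 TPM in DMSO libraries. Both were lower in every treated library, with log2 changes of -0.86 ± 0.09 and -0.83 ± 0.13 (SE; limma, adjusted p = 3.24e-05 and 3.70e-04). After the GC adjustment TARS1 was not called, at -0.07 (adjusted p = 0.360), and LARS1 was called higher, at 0.25 (adjusted p = 0.0278).

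IARS1, for isoleucine, had 102, 106 and 81.1 TPM in 16'-DEC libraries, against 134, 134 and 143 TPM in DMSO libraries. RARS1, for arginine, had 60.2, 72.3 and 62.2 TPM in 16'-DEC libraries, against 80.3, 78.1 and 82.8 TPM in DMSO libraries. These were the smallest falls of the class, -0.51 ± 0.10 and -0.31 ± 0.09 (SE; limma, adjusted p = 0.00175 and 0.0103), and neither gene overlapped. Median-of-ratios scaling ended both calls, at -0.17 for IARS1 and 0.04 for RARS1, and the GC adjustment turned both to called rises of 0.29 and 0.61.

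Among the 10 members that rose, QARS1, which charges glutamine (ENSG00000172053, GRCh38 chr3:49095932-49105135, minus strand), rose most. Its levels were 239, 232 and 224 TPM in 16'-DEC libraries, against 127, 125 and 125 TPM in DMSO libraries. The values within each condition lay close together, and the treated mean was 184% of the control mean. The log2 change was 0.88 ± 0.06 (SE; limma, adjusted p = 3.06e-06), and it was 0.76 after the GC adjustment.

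FARSA, the catalytic subunit of phenylalanyl-tRNA synthetase, had 66.0, 62.6 and 61.6 TPM in 16'-DEC libraries, against 30.8, 38.1 and 42.7 TPM in DMSO libraries. Its partner subunit FARSB had 12.7, 13.5 and 12.2 TPM in 16'-DEC libraries, against 14.0, 13.4 and 14.7 TPM in DMSO libraries. FARSA rose by 0.77 ± 0.11 without overlap (SE; limma, adjusted p = 3.05e-04), whereas FARSB had a log2 difference of -0.12 that did not pass the test (adjusted p = 0.219). The enzyme is built from equal numbers of both subunits. FARSB had a log2 difference of 0.89 after the GC adjustment and 0.20 with median-of-ratios scaling, and was called higher in each, as it was with quantile normalization (0.34).

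SARS1, for serine, had 249, 247 and 233 TPM in 16'-DEC libraries, against 146, 147 and 172 TPM in DMSO libraries. HARS1, for histidine, had 96.2, 96.4 and 85.6 TPM in 16'-DEC libraries, against 53.3, 60.4 and 63.5 TPM in DMSO libraries. KARS1, for lysine in cytosol and mitochondria, had 142, 142 and 129.8 TPM in 16'-DEC libraries, against 88.4, 89.6 and 100.5 TPM in DMSO libraries. All 3 rose without overlap, by 0.65, 0.64 and 0.57 on the log2 scale (limma, adjusted p = 1.07e-04, 1.95e-04 and 1.92e-04). KARS1 rose by 0.78 after the GC adjustment.

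Smaller rises were found for CARS1 (cysteine, 0.52), VARS1 (valine, 0.49), AARS1 (alanine, 0.37), YARS1 (tyrosine, 0.26) and MARS1 (methionine, 0.26), with adjusted p-values from 5.20e-04 for CARS1 to 0.0407 for MARS1 (limma). VARS1 had 84.6, 82.2 and 73.3 TPM in 16'-DEC libraries, against 50.9, 61.0 and 58.9 TPM in DMSO libraries. MARS1 had 192, 179 and 156 TPM in 16'-DEC libraries, against 132, 154 and 154 TPM in DMSO libraries, a narrow gap. The MARS1 call was lost without the first 16'-DEC library (adjusted p = 0.146), the second 16'-DEC library (0.105) or the first DMSO library (0.128). That of YARS1 was lost without the first 16'-DEC library (0.0543).

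GARS1 and WARS1 did not pass the test in TPM, and both were called higher with the other scalings. The log2 change with median-of-ratios scaling, quantile normalization and GC adjustment was 0.49, 0.18 and 0.30 in GARS1, and 0.63, 0.42 and 0.33 in WARS1. GARS1 had 289.7, 298 and 272 TPM in 16'-DEC libraries, against 256, 271 and 256 TPM in DMSO libraries, a log2 difference of 0.14 (limma, adjusted p = 0.0994) with no overlap. WARS1, for tryptophan and known for its induction by interferon, had 191, 184 and 139.6 TPM in 16'-DEC libraries, against 129.6, 135 and 157 TPM in DMSO libraries. Its groups overlapped through the third 16'-DEC library, and the log2 difference was 0.28 (adjusted p = 0.0794). Without that library it was 0.42 and was called (adjusted p = 0.00514), as it was without the third DMSO library (0.36, adjusted p = 0.0463), and GARS1 was called without the third 16'-DEC library (0.17, adjusted p = 0.0481).

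The synthetases belong to classes I and II, which differ in the fold of the catalytic domain. Among cytosolic enzymes in TPM 5 of 9 class I members rose and 3 fell, and 5 of 9 class II members rose and 2 fell, with EPRS1 left out because its glutamate and proline domains belong to different classes. Of all tested genes 22.7% were called higher and 48.9% lower in TPM. The 7 enzymes of the multisynthetase complex on the list were 3 that rose (KARS1, MARS1 and QARS1) and 4 that fell (EPRS1, LARS1, IARS1 and RARS1), with a median change of -0.31, equal to that of all tested genes to 2 decimals. Of the 12 cytosolic members outside the complex, 7 rose, 2 fell and 3 did not pass the test, with a median of 0.32. Of the complex enzymes, median-of-ratios scaling called 3 higher and 2 lower, quantile normalization called 3 higher and 3 lower, and the GC adjustment called 6 higher and 1 (EPRS1) lower. Of those outside it, 10 were called higher and 2 lower with either of the first scalings, and 10 and 1 with the GC adjustment. The class I cytosolic enzymes were called 6 higher and 1 lower with median-of-ratios scaling and 9 and 0 with the GC adjustment, and the class II enzymes 7 and 2, and 7 and 1. The counts of all genes under each scaling are those given above beside the cytosolic enzymes.

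Of the 3 scaffold genes, EEF1E1 and AIMP1 had the greatest changes of all members in TPM, and AIMP2 rose. EEF1E1, also known as AIMP3 or p18 (ENSG00000124802, GRCh38 chr6:8073360-8102578, minus strand), had 168, 169 and 185 TPM in 16'-DEC libraries, against 828, 852 and 740.0 TPM in DMSO libraries. The treated mean was 21.6% of the control mean. The log2 change was -2.21 ± 0.08 (SE; limma, adjusted p = 1.28e-07), and -0.82 after the GC adjustment (adjusted p = 2.14e-05). The gene overlaps an annotated readthrough transcript with BLOC1S5 on the same strand, and reads of the shared exons could have been counted for either.

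AIMP1, also called p43 and the precursor of the cytokine EMAPII (ENSG00000164022, GRCh38 chr4:106315544-106349226, plus strand), had 43.2, 49.7 and 46.9 TPM in 16'-DEC libraries, against 146, 140.4 and 140.0 TPM in DMSO libraries. It fell by 1.59 on the log2 scale (limma, adjusted p = 3.26e-07), but the change was -0.11 and not called after the GC adjustment (adjusted p = 0.0972). AIMP2, also called p38, which binds KARS1 in the complex, had 55.6, 53.9 and 58.4 TPM in 16'-DEC libraries, against 41.3, 45.2 and 45.6 TPM in DMSO libraries. It rose by 0.34 ± 0.08 (SE; adjusted p = 0.00334), opposite to the other scaffold genes in TPM and in the median-of-ratios, quantile and GC-adjusted fits.

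Of the 16 mitochondrial enzymes, 5 fell with 16'-DEC, 2 rose and 9 did not pass the test, with a median change of 0.05. Of all tested genes 48.9% were lower and 22.7% higher, so both shares were smaller among these enzymes. The falls were led by the isoleucine and asparagine enzymes. The libraries did not overlap for 9 of the 16, 3 higher and 6 lower in 16'-DEC, where 24.3% of all tested genes were higher and 51.0% lower without overlap. Here too the split differed between scalings. With median-of-ratios scaling 10 were called higher and 3 lower, with quantile normalization 11 and 4, and with the GC adjustment 4 and 5. Of all genes 5290 were called higher and 5376 lower with the first of these, 5990 and 4748 with the second, and 4590 and 4213 of 13291 with the third.

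IARS2, for mitochondrial isoleucine, had 47.6, 56.5 and 44.1 TPM in 16'-DEC libraries, against 109, 109 and 105 TPM in DMSO libraries. NARS2, for mitochondrial asparagine, had 14.5, 16.5 and 14.97 TPM in 16'-DEC libraries, against 32.4, 29.3 and 29.7 TPM in DMSO libraries. Treated means were 45.8% and 50.3% of the control means, and the log2 changes were -1.12 ± 0.10 and -0.95 ± 0.09 (SE; limma, adjusted p = 8.88e-06 and 1.25e-05). Both were called lower after the GC adjustment, at -0.38 and -0.33.

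MARS2, for mitochondrial methionine, had 12.6, 13.4 and 12.1 TPM in 16'-DEC libraries, against 20.2, 21.9 and 21.0 TPM in DMSO libraries. It fell by 0.69 on the log2 scale (limma, adjusted p = 7.22e-05), and by 0.47 after the GC adjustment. RARS2, for mitochondrial arginine and linked to pontocerebellar hypoplasia in humans, had 28.0, 35.3 and 29.8 TPM in 16'-DEC libraries, against 46.4, 45.4 and 46.8 TPM in DMSO libraries. It fell by 0.56 (adjusted p = 6.33e-04), but was called higher after the GC adjustment, at 0.29, and was not called with median-of-ratios scaling, at -0.22.

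LARS2, for mitochondrial leucine and linked to Perrault syndrome, had 12.5, 13.2 and 9.55 TPM in 16'-DEC libraries, against 15.2, 15.2 and 16.01 TPM in DMSO libraries. It fell by 0.38 (limma, adjusted p = 0.0185). Scaled by median of ratios the difference was -0.05, and quantile-normalized it was 0.09, uncalled in both. After the GC adjustment it was called lower, at -0.20 (adjusted p = 0.0239), but not with the replicate block added (adjusted p = 0.0538), and the call was also lost without the third DMSO library (adjusted p = 0.0597).

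CARS2, for mitochondrial cysteine, had 69.3, 65.4 and 64.3 TPM in 16'-DEC libraries, against 47.4, 50.5 and 48.5 TPM in DMSO libraries. FARS2, the single-chain mitochondrial phenylalanine enzyme, had 13.9, 14.0 and 14.1 TPM in 16'-DEC libraries, against 9.10, 11.2 and 10.9 TPM in DMSO libraries. Neither overlapped, and they rose by 0.43 and 0.41 (limma, adjusted p = 5.31e-04 and 0.00478). After the GC adjustment the rises were 0.20 and 0.21.

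The 9 mitochondrial enzymes that did not pass the test had log2 differences from -0.24 in WARS2 to 0.20 in VARS2. WARS2, for tryptophan, had 6.85, 7.78 and 5.91 TPM in 16'-DEC libraries, against 8.16, 7.83 and 8.78 TPM in DMSO libraries. It came close to the threshold (limma, adjusted p = 0.0779), was called lower without the second 16'-DEC library (-0.33, adjusted p = 0.0368) and was called higher after the GC adjustment, at 0.60. TARS2, for threonine, had 20.7, 19.6 and 19.7 TPM in 16'-DEC libraries, against 16.9, 18.9 and 17.2 TPM in DMSO libraries, a difference of 0.17 without overlap (adjusted p = 0.0915). EARS2, which charges glutamate and also begins the mitochondrial route to glutaminyl-tRNA, had 36.3, 34.2 and 30.2 TPM in 16'-DEC libraries, against 36.4, 37.5 and 36.2 TPM in DMSO libraries. The remaining 6, SARS2, HARS2, PARS2, AARS2, YARS2 and VARS2, had adjusted p-values of 0.117 to 0.714. All 9 but WARS2 were called higher with median-of-ratios scaling, by 0.21 in EARS2 to 0.54 in VARS2, and all 9 with quantile normalization, while SARS2 was called lower after the GC adjustment, at -0.28. VARS2 was called higher without the third 16'-DEC library (0.30, adjusted p = 0.00748).

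**Figure D2:**
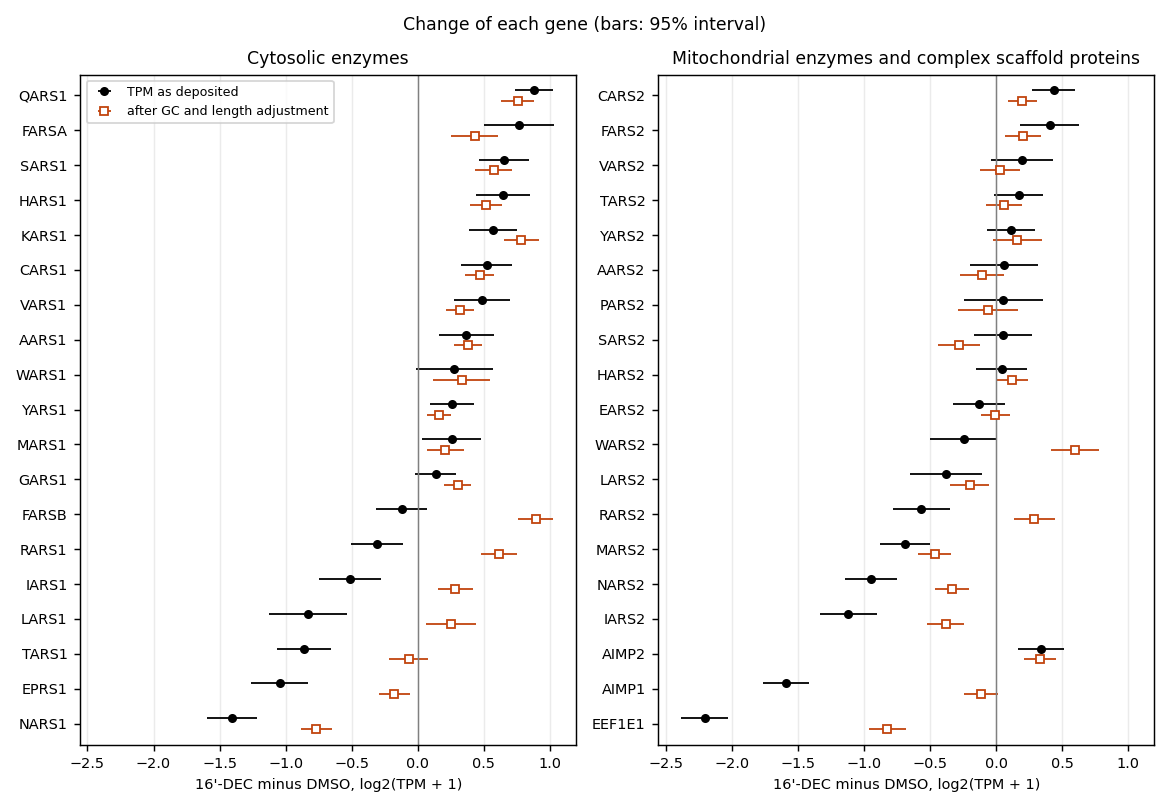
Change of each member, 16'-DEC minus DMSO on the log2(TPM + 1) scale, with 95% intervals from limma on 3 libraries per condition, from the deposited TPM (filled black circles) and after the GC and length adjustment (open orange squares). The greatest rise in TPM is QARS1 at 0.88 and the greatest fall EEF1E1 at -2.21; RARS1, IARS1, LARS1 and RARS2 lie below 0 before and above 0 after the adjustment.

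The direction of the members followed the GC content of their transcripts, as it did for the whole table. The 10 cytosolic enzymes that rose had 47.2% to 62.6% GC, and the 6 that fell had 41.4% to 44.3%. The mitochondrial enzymes that rose had 55.4% and 56.4%, and those that fell had 41.9% to 50.8%. Across the 38 members Spearman's rho between GC content and log2 change was 0.742, against 0.680 across the 13291 tested genes with a GC value. After the adjustment rho was 0.0907 across the members. The adjustment removes the trend with GC content, so a low value is set by construction and tests nothing. These are descriptions across genes, which share their libraries and are not independent replicates. The part of GC content in the changes was not tested, and the adjusted values given here only describe them.

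Within a GC range the cytosolic and mitochondrial enzymes can be read against other genes of like composition. Under 45% GC, 0 of 7 cytosolic enzymes were called higher and 6 lower with a median of -0.83, and 0 of 4 mitochondrial enzymes were called higher and 3 lower with a median of -0.76. Of all 4743 genes in that range 3.54% were called higher and 85.4% lower, with a median of -1.11. Between 45% and 50% GC, 1 of 2 cytosolic enzymes was called higher and 0 lower, and 0 of 3 mitochondrial enzymes were called higher and 1 lower. Of all 2379 genes in this middle range 15.9% were called higher and 50.8% lower, with a median of -0.33. At 50% GC or more, 9 of 10 cytosolic enzymes were called higher and 0 lower with a median of 0.50, while 2 of 9 mitochondrial enzymes were called higher and 1 lower with a median of 0.06. Of all 6169 genes there, 42.1% were called higher and 19.1% lower, with a median of 0.18. The cytosolic exception at that GC content was WARS1, which did not pass the test.

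**Figure D3:**
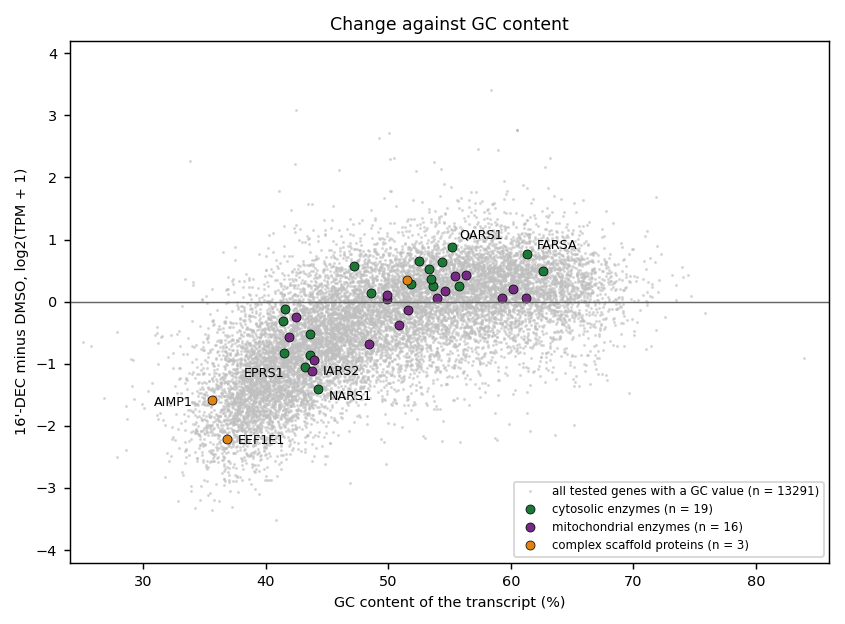
Change of each tested gene, 16'-DEC minus DMSO on the log2(TPM + 1) scale, against the GC content of its transcript in percent, with all 13291 genes in grey and the members in colour (green, cytosolic; purple, mitochondrial; orange, scaffold). The scaffold genes AIMP1 and EEF1E1, at 35.6% and 36.9% GC, lie lowest among the members, and the cytosolic enzymes above 50% GC lie above 0.

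For 13 amino acids the list holds a cytosolic gene and its mitochondrial counterpart, and the ratio of both in each library cancels any scaling factor that all genes share, apart from the effect of the added 1 TPM. The log2 ratio was higher in every 16'-DEC library than in every DMSO library for 8 pairs, lower for 3 and overlapping for 2. Of all tested single genes, 24.3% were higher and 51.0% lower without overlap. The share among ratios of other gene pairs was not computed, so these counts are not shown to be particular to synthetases. The exact permutation test, 2-sided, gave p = 0.1 for the 11 pairs without overlap, which is the smallest p that 3 against 3 libraries allow, and 0.118 with Benjamini-Hochberg adjustment over the 13 pairs. No pair could therefore reach 0.05.

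The methionine pair moved most upward, since MARS1 was higher and MARS2 lower: the log2 ratio was 3.69 ± 0.126 in 16'-DEC libraries and 2.74 ± 0.084 in DMSO libraries (SD, n = 3 each), a difference of 0.94, or 0.67 after the GC adjustment. IARS1/IARS2, HARS1/HARS2 and SARS1/SARS2 were each higher by 0.60, by different routes: both isoleucine genes fell and the mitochondrial one more, while HARS1 and SARS1 rose and the log2 differences of HARS2 and SARS2 were 0.04 and 0.05. After the GC adjustment these differences were 0.67, 0.39 and 0.85. The ratio was also higher by 0.52 for WARS1/WARS2, 0.31 for AARS1/AARS2, 0.29 for VARS1/VARS2 and 0.26 for RARS1/RARS2. Quantile normalization gave smaller differences for several of these pairs. They were 0.63 for MARS1/MARS2, 0.40 for HARS1/HARS2, 0.24 for SARS1/SARS2, 0.17 for WARS1/WARS2, 0.17 for RARS1/RARS2 and 0.0083 for AARS1/AARS2.

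The threonine pair moved most downward, at 2.28 ± 0.190 in 16'-DEC libraries and 3.31 ± 0.103 in DMSO libraries, a difference of -1.03 that shrank to -0.13 after the GC adjustment. For asparagine both genes fell and the cytosolic one more, and the difference of -0.46 in NARS1/NARS2 was -0.44 after the adjustment. Their GC contents were 44.3% and 43.9%. LARS1/LARS2 differed by -0.45, and by 0.45 after the adjustment, so its direction turned. WARS1/WARS2 turned as well, to -0.26. With quantile normalization the threonine, asparagine and leucine pairs differed more, by -1.32, -0.74 and -0.66. The cysteine and tyrosine pairs overlapped, with differences of 0.09 and 0.15 (exact permutation p = 0.2 each, adjusted p = 0.2).

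**Figure D4:**
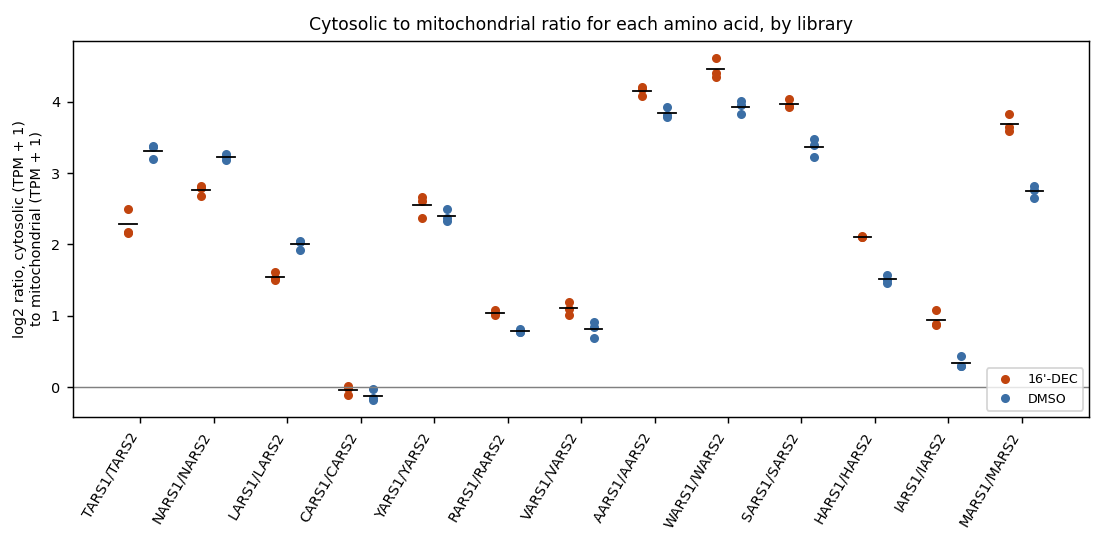
Log2 ratio of the cytosolic to the mitochondrial gene, (TPM + 1) over (TPM + 1), for the 13 amino acids with both genes, ordered by the difference between conditions. Points are libraries (orange, 16'-DEC, left; blue, DMSO, right) and lines are means of 3; the methionine pair lies at 3.69 in 16'-DEC and 2.74 in DMSO libraries on average, and the threonine pair at 2.28 and 3.31.

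Averaged over each class, the mean log2 level of cytosolic enzymes stood above that of mitochondrial enzymes by 2.39, 2.40 and 2.36 in 16'-DEC libraries and by 2.18, 2.15 and 2.24 in DMSO libraries. The class difference was larger in each treated library. The summed TPM of the cytosolic class were 6.31, 6.26 and 6.10 times those of the mitochondrial class in 16'-DEC libraries, against 4.97, 4.94 and 5.25 times in DMSO libraries. The difference between the classes' median changes was 0.21, with the cytosolic class higher, but it was -0.05 with quantile normalization.

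The start regions of the cytosolic genes are shown because several carry a motif of the kind bound by ATF4 with C/EBP proteins, the composite element of amino acid response genes. RefSeq windows of the build GRCh38.p14, from 250 bases before to 50 bases after the start, were available for 33 of the 38 members, and AARS2, LARS1, VARS1, VARS2 and YARS1 had no entry. TGATGCAA, searched on both strands, lay in a window of 6 of 16 cytosolic, 0 of 14 mitochondrial and 0 of 3 scaffold genes, against 1.08% of 27305 genes in the table. With the base before AA left free (TGATGNAA, which includes the motif just named) the counts were 7 of 16, 1 of 14 and 0 of 3, against 4.46% of all genes. The 6 genes with TGATGCAA are printed 5′ to 3′ on their own strand, with the match in capitals (TTGCATCA is its reverse complement) and at most 30 bases after the start site.
NARS1, chr18:57621807-57621868, minus strand: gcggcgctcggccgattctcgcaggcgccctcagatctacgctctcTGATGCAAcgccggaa
TARS1, chr5:33440921-33440994, plus strand: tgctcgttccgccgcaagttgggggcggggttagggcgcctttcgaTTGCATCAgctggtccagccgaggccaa
IARS1, chr9:92293668-92293756, minus strand: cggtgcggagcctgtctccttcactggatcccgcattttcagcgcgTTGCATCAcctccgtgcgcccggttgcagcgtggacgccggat
CARS1, chr11:3057394-3057471, minus strand: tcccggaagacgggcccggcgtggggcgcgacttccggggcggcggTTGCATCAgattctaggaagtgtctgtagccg
MARS1, chr12:57488018-57488097, plus strand: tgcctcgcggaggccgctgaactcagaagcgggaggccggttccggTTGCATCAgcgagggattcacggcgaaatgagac
AARS1, chr16:70289640-70289739, minus strand: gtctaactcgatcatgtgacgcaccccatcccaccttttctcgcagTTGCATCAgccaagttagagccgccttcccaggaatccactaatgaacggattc

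Of the 6 genes with these bases near their start, 3 fell and 3 rose in TPM. Over all tested genes 22.7% were called higher and 48.9% lower. The log2 changes were -1.40 in NARS1, -0.86 in TARS1 and -0.51 in IARS1, and 0.52 in CARS1, 0.26 in MARS1 and 0.37 in AARS1. After the GC adjustment NARS1 was called lower (-0.77), TARS1 was not called (-0.07) and IARS1 was called higher (0.29). CARS1 (0.47), MARS1 (0.21) and AARS1 (0.38) were called higher after it too. In MARS1 and CARS1 the match spans the start site, in NARS1 and TARS1 it lies after it, in IARS1 it lies just before it, and in AARS1 it begins 187 bases before it. The seventh cytosolic gene, GARS1, holds TTTCATCA, the relaxed form on the opposite strand, and was not called. A match of letters is a description and not a site of binding. The sequence CACGTG, the E-box of the MYC family, lay in 1 of 16 cytosolic, 3 of 14 mitochondrial and 1 of 3 scaffold genes, against 8.77% of all genes.

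HARS1 and HARS2 are neighbours that start back to back on chromosome 5 and share the sequence between their starts. Of the stretch printed here from the plus strand, the 84 bases between the RefSeq start sites are in capitals; HARS1 is read leftward from their left end and HARS2 rightward from their right end.
HARS1 and HARS2, chr5:140691341-140691484, plus strand: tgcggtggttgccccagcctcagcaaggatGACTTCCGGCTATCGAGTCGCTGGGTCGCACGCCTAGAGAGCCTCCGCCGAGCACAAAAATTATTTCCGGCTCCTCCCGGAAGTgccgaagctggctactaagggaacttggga
HARS1 rose by 0.64 on the log2 scale. HARS2 had 21.3, 21.6 and 19.2 TPM in 16'-DEC libraries, against 18.7, 20.8 and 20.7 TPM in DMSO libraries, and the conditions overlapped (log2 difference 0.04; limma, adjusted p = 0.682). HARS2 was called higher with median-of-ratios scaling, at 0.38. The annotated genes overlap on opposite strands, as do MARS1 and DDIT3, and the labels do not say whether strand was used in counting, so reads of the overlap could have been counted for either gene.

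Genes that act on the same tRNAs changed in both directions. Of 29 tested genes of tRNA maturation, editing and delivery, 9 rose, 13 fell and 7 did not pass the test (median -0.15), near the 22.7% higher and 48.9% lower of all tested genes. With median-of-ratios scaling 14 were called higher and 10 lower, where 5290 and 5376 of all 14275 genes were called. With the GC adjustment the counts were 15 and 5, where 4590 and 4213 of 13291 genes were called. The falls with the smallest adjusted p were those of TRMT10C, TRNT1 and GFM1. TRMT10C, a subunit of mitochondrial RNase P, was at 14.9 ± 1.34 TPM in 16'-DEC and 59.8 ± 4.37 TPM in DMSO libraries (SD, n = 3 each), and TRNT1, which adds the terminal CCA to tRNAs, at 10.7 ± 1.36 TPM in 16'-DEC and 39.7 ± 1.64 TPM in DMSO libraries. Their log2 changes were -1.94 and -1.80, and -0.77 and -0.48 after the GC adjustment. GFM1, a mitochondrial elongation factor, had a change of -1.17 that was -0.10 and not called after the adjustment. Subunits of the cytosolic factor that delivers charged tRNA to the ribosome rose. EEF1G was at 1940 ± 36.1 TPM in 16'-DEC and 858 ± 110 TPM in DMSO libraries, and EEF1B2 and EEF1A1 rose by 0.81 and 0.82.

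Of 23 tested genes of uncharged tRNA sensing and ATF4 targets other than synthetases, 12 rose, 8 fell and 3 did not pass the test (median 0.28), and CHAC1 was under the filter. The table as a whole had 22.7% higher and 48.9% lower. With median-of-ratios scaling 14 were called higher and 4 lower, as with the GC adjustment. Of all 14275 genes 5290 were called higher and 5376 lower with the first of these, and 4590 and 4213 of 13291 with the second. EIF2AK4, the sensor kinase GCN2, was at 29.4 ± 2.76 TPM in 16'-DEC and 46.1 ± 2.92 TPM in DMSO libraries, a change of -0.64 (limma, adjusted p = 2.49e-04) that was -0.23 and not called after the GC adjustment. ATF4 itself, which is controlled mainly at translation, was at 698 ± 12.1 TPM in 16'-DEC and 507 ± 25.1 TPM in DMSO libraries, a rise of 0.46 (adjusted p = 1.89e-04). The rise of ATF4 was 0.22 after the GC adjustment. Among the targets ATF3, TRIB3 and SHMT2 rose by 1.13, 0.96 and 0.76, while the changes of CEBPG and PSAT1 were -1.28 and -0.999. After the adjustment the rises were 1.13, 0.66 and 0.61, and the falls -0.54 and -0.19, each called in the same direction. Of 12 amino acid transporters, 3 rose (SLC3A2, SLC1A4 and SLC1A5, by 0.90, 0.80 and 0.74), 4 fell and 5 did not pass the test (median -0.04), beside 22.7% higher and 48.9% lower over all tested genes. With either the median-of-ratios scaling or the GC adjustment 6 were called higher and 2 lower, beside the counts of all genes just given for these scalings. SLC7A11, the cystine carrier that pairs with SLC3A2, had a change of -1.41 in TPM and was called higher after the GC adjustment, at 0.27. SLC36A4 changed by -0.52 in TPM and was likewise called higher, at 1.16, and SLC38A2, a carrier of small neutral amino acids, changed by -1.40 in TPM and was not called after it, at 0.04.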

How the data were processed

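RNA of 3 16'-DEC and 3 DMSO libraries was measured by poly(A) RNA sequencing. The authors deposited a table of TPM per gene. HISAT2 2.0.1, cutadapt 1.9.1, DESeq2, HTSeq 0.6.1 and the build GRCh38 were used upstream, per the submitters' processing notes, which give no roles. No source used here gives the annotation, the gene lengths or the read depth. TPM hide changes in total RNA per cell.

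From the deposited TPM, log2(TPM + 1) was fitted with limma 3.58.1 (R 4.3.3, mean trend, 2-sided) for the 14275 genes averaging 1 TPM or more. Benjamini-Hochberg adjustment ran over all of them, with a threshold of 0.05. Log2 fold changes are on this scale and understate changes of low genes. The fit was run on simulated data with independent noise, few changed genes and no trend with GC content. These data differ in that, so the simulation does not test the calls. GC content and length came from GENCODE 29 transcripts, matched for 93.1% of tested genes and all 38 members; the adjustment removes a spline of both (5 degrees of freedom each) from each library and re-centres it. Of the members, 24 overlap another annotated gene. All members are named, with up to 3 genes of smallest adjusted p in each direction from each context list (mean of at least 5 TPM) plus EIF2AK4 and ATF4. Members and lists were chosen with earlier results of these data known. Replicate numbers were not used as pairs in the main fit. Libraries shared at most 0.0692% identical values. Alternatives were other pseudocounts, filters, scalings, a replicate block and leaving out each library.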

Additional observations from a re-analysis of the deposited data

How the results depend on the processing

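Of the 38 member changes, all 38 kept direction and side of the threshold with pseudocounts of 0.1 or 5, and 37 of 37 with a mean of at least 5 TPM. MARS1 and LARS2 lost their calls with no filter. Median-of-ratios scaling turned the log2 difference of EARS2 (0.21), FARSB (0.20), RARS1 (0.0381) and WARS2 (0.0657). Quantile normalization turned EARS2 (0.20), FARSB (0.34), LARS2 (0.0881) and WARS2 (0.25). The GC and length adjustment, with or without the replicate block, turned AARS2 (-0.11), FARSB (0.89), IARS1 (0.29), LARS1 (0.25), PARS2 (-0.0633), RARS1 (0.61), RARS2 (0.29), SARS2 (-0.28) and WARS2 (0.60), and among pairs LARS (0.45), WARS (-0.26) and YARS (-0.00195), which quantile normalization also turned (-0.0953). The causes were not tested. All genes called higher numbered 5290 with median-of-ratios and 5990 with quantile scaling, against 3236. All called lower numbered 4213 with GC adjustment and 3981 with block and GC adjustment, against 6974, with fewer genes tested. Cytosolic counts were 16 higher and 2 lower with GC adjustment and 2 lower with the block added. Mitochondrial higher counts were 10, 11, 4 and 4 with median-of-ratios, quantile, GC, and GC with block, and lower 3 with median-of-ratios. The class median difference was 0.27, -0.0516, 0.32 and 0.32 in that order. The replicate block alone gave 9 cytosolic higher and 6 lower, 2 mitochondrial higher and 5 lower, and 3014 higher and 6823 lower of all genes. MARS1 alone lost its call there, and also with no mean trend. The deviations of same-numbered libraries had r = 0.0941, -0.182 and -0.0726, and those of differently numbered ones -0.196 to 0.274. With 3 libraries per condition this cannot exclude pairs, and the numbers were used as pairs only in the block. Leaving out each library gave 8 to 12 cytosolic higher and 6 lower, 2 to 3 mitochondrial higher and 4 to 6 lower, 2773 to 3426 and 6670 to 6754 of all genes, and class differences of 0.19 to 0.26. It turned 4 small changes, with ranges of -0.0296 to 0.107 in AARS2, -0.0046 to 0.0912 in HARS2, -0.0203 to 0.162 in PARS2 and -0.00206 to 0.117 in SARS2. Depth is unknown, so the precision of low members such as PARS2 rests on the spread between libraries.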
